A study of Rattus norvegicus with 9 samples.

Results

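Immediate early response genes are transcribed within minutes of a stimulus, without new protein synthesis, and 10 of them were followed here in rat bone: Fos, Fosb, Jun, Junb, Egr1, Egr2, Egr3, Atf3, Nr4a1 and Ier2. They were taken by symbol from a list of members, and all 10 were present among the 23026 genes of the deposited tables and among the 16874 genes with enough counts to be tested. Fos, Fosb, Jun and Junb encode subunits of AP-1, a dimeric transcription factor, and Atf3 encodes a stress-induced factor that pairs with Jun proteins. Egr1, Egr2 and Egr3 encode zinc finger transcription factors, Nr4a1 an orphan nuclear receptor, and Ier2 a small nuclear protein. In bone, AP-1 takes part in the formation of osteoblasts and osteoclasts, and the whole set is also known to respond to mechanical loading, serum, injury and the handling of fresh tissue.

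The study used female Sprague–Dawley rats in which bilateral ovariectomy (OVX) serves as a model of postmenopausal osteoporosis (PMOP in the labels), and asked whether astragaloside IV (AS-IV), a saponin of Astragalus, alters the bone of such animals. mRNA was sequenced from bone in 9 libraries, 3 per group, which the methods describe as independent biological replicates. Sham rats lost fat beside the ovary in place of the ovaries and received the vehicle sodium carboxymethyl cellulose (CMC-Na). OVX rats were ovariectomized and received CMC-Na, and OVX-AS-IV-High rats were ovariectomized and received AS-IV at 80 mg/kg in CMC-Na by gavage. Gavage began 6 weeks after surgery and lasted 8 weeks in every group. The labels give the CMC-Na of the Sham libraries as 1%, 2% and 3% and that of the OVX libraries as 1%, whereas the methods give a single strength for all. Before the bone was taken, every rat was anaesthetized with pentobarbital, bled from the aorta and euthanized. The time from anaesthesia to freezing is not given in the sources used here, and neither is the order in which the animals were taken. A possible dissection or handling response therefore cannot be told apart from an effect of the group for any of these genes by the labels alone.

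The libraries held 34874880 to 37298250 counts each, so depth differed little between them. The bone label was borne out by osteoblast markers (Bglap, Col1a1 and 4 others), whose summed level was 3040 to 11485 CPM (counts scaled to library size), and none of the markers was at 0 in all libraries. Skeletal muscle markers (Acta1, Ckm and 5 others) varied most among the marker lists, at 8770, 5998 and 1399 CPM in Sham, 3131, 1859 and 1503 CPM in OVX, and 4407, 1955 and 524 CPM in OVX-AS-IV-High. Sham 1, Sham 2 and OVX-AS-IV-High 1 were the 3 highest and are called muscle-rich here, although OVX 1 was not far below the last of them.

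Such genes are known to be switched on through a few promoter elements, among them the CArG box bound by serum response factor and the cAMP response element TGACGTCA with its core TGACG. RefSeq windows of the GRCr8 assembly, from 250 bases before to 50 bases after the start site, were found for 6 of the 10 genes (Fosb, Nr4a1, Egr1, Junb, Ier2 and Egr2). The 150 bases before the start site are printed for 4 of them to show how unlike these promoters are, 5′ to 3′ on the gene's strand, with CArG boxes, TGACGTCA and TGACG, read on either strand, in capitals.
Egr2, chr20:21054442-21054591 (-): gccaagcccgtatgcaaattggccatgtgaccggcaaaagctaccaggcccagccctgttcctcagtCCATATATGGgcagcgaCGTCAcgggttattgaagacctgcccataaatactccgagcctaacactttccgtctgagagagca
Ier2, chr19:40399223-40399372 (+): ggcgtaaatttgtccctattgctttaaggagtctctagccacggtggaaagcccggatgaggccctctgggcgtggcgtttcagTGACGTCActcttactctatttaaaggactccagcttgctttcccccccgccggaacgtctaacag
Nr4a1, chr7:134259988-134260137 (+): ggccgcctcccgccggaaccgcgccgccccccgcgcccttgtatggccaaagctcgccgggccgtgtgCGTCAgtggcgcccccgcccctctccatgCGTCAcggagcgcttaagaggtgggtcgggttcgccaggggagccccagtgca
Fosb, chr1:88089185-88089334 (-): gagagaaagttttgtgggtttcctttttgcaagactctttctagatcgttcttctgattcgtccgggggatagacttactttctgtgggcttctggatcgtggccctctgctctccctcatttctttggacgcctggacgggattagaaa
Counting back from -1 at the base before the start site, Egr2 held a CArG box at -83 to -74 and TGACG at -66 to -62, Ier2 held TGACGTCA at -66 to -59, and Nr4a1 held TGACG at -82 to -78 and at -53 to -49. None of these letters was found in the printed Fosb stretch. The annotated genes on this assembly reach further upstream, Fosb to 88089506, Egr2 to 21055201 and Nr4a1 to 134247153. The start sites of these windows thus lie inside the genes. Bases before a start site further upstream were not searched, so a missing element speaks only for the window shown.

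Over the whole windows and both strands, a CArG box was found in 2 of the 6 promoters (Egr1 and Egr2), against 1.64% of all 33469 RefSeq windows. TGACG was found in 5 of 6, all but Fosb, against 21.2%, and the full TGACGTCA, which contains it on each strand, in Ier2 alone, against 1.83%. The AP-1 site TGANTCA was found in 0 of 6, against 7.33%. The EGR site GCGNGGGCG was found in Nr4a1, against 4.98%, the ETS core CCGGAA in Egr2, Ier2 and Nr4a1, against 15%, and TATAAA in Fosb and Junb, against 14.2%. These matches describe letters and were not tested for use in bone.

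Levels can be set side by side between genes only per length, as FPKM, which divides the fragments of a gene by its length and by the library size. Over the 9 libraries the mean FPKM ran from 54.8 for Ier2 through 44.1 for Junb, 23.6 for Egr1, 14.7 for Fos, 13.7 for Jun and 9.99 for Nr4a1 down to 2.87 for Egr3, 2.21 for Atf3, 0.921 for Fosb and 0.601 for Egr2. Fos and Jun were neighbours in this order, and theirs was not the same in every group. In Sham the mean FPKM was 16.9 for Fos and 17.9 for Jun. The OVX libraries averaged 10.3 for Fos and 12.1 for Jun, and the treated libraries averaged 16.8 for Fos and 10.96 for Jun.

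Set between OVX and Sham, all 10 genes had a lower fitted level in OVX. For 8 of them, all but Egr2 and Egr3, the unadjusted p of edgeR's quasi-likelihood test was under 0.05 with a lower level in OVX, which held for 8.28% of all tested genes. The median log2 fold change of the 10 was -0.59, beside -0.01 over all tested genes. None of the 10 passed after Benjamini-Hochberg adjustment over all tested genes, nor did any other gene (0%, with 2775 genes under an unadjusted p of 0.05). DESeq2, run as an alternative, passed 834 genes after adjustment, Atf3 and Nr4a1 among them. In such bulk samples, fewer cells of a type and less RNA per cell cannot be told apart.

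**Figure D1:**
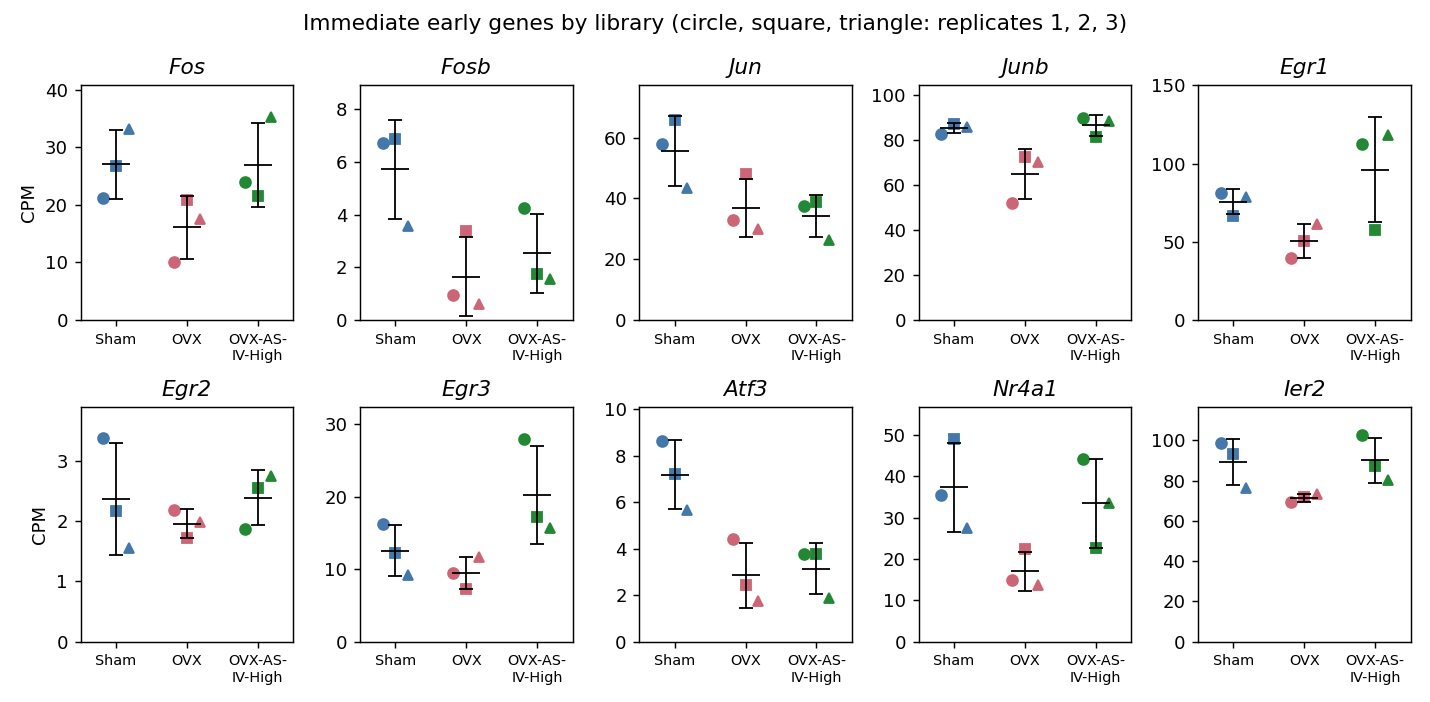
CPM of each of the 10 genes (y axes, linear from 0) in the 9 libraries, with points for replicates 1 to 3 and black lines for the group mean ± SD (n = 3). The OVX points lie below every Sham point for 7 genes, while Jun, Egr2 and Egr3 overlap between these groups.

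Nr4a1, the orphan nuclear receptor, stood at 35.6, 48.9 and 27.6 CPM in Sham, 15.0, 22.4 and 13.8 CPM in OVX and 44.1, 22.6 and 33.6 CPM in OVX-AS-IV-High. All 3 OVX libraries lay below all Sham libraries, and the highest OVX library only just below the lowest OVX-AS-IV-High library. The log2 fold change was -1.13 (SE 0.293, edgeR adjusted p = 0.153) for OVX against Sham and 0.97 (SE 0.292, adjusted p = 0.652) for OVX-AS-IV-High against OVX. Both comparisons use the same OVX libraries and so are not independent of each other.

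Atf3 stood at 8.65, 7.24 and 5.69 CPM in Sham, 4.41, 2.43 and 1.74 CPM in OVX, and 3.77, 3.79 and 1.87 CPM in OVX-AS-IV-High. Both ovariectomized groups lay wholly below Sham and overlapped each other. The log2 fold change was -1.33 (SE 0.393, edgeR adjusted p = 0.175) for OVX against Sham and -1.19 (SE 0.391, adjusted p = 0.176) for OVX-AS-IV-High against Sham. Between the ovariectomized groups it was 0.14 (SE 0.391).

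Fosb, the least abundant AP-1 subunit of the set, had 245, 234 and 126 counts in Sham, 35, 128 and 23 counts in OVX, and 155, 65 and 57 counts in OVX-AS-IV-High. Its levels of 6.73, 6.86 and 3.55 CPM in Sham compare with 0.954, 3.38 and 0.624 CPM in OVX. OVX 2 thus lay near the lowest Sham library and far above the other OVX libraries. The log2 fold change for OVX against Sham was -1.79 (SE 0.643, edgeR adjusted p = 0.227), and OVX-AS-IV-High, at 4.27, 1.76 and 1.57 CPM, overlapped both groups.

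Atf3, Fosb and Nr4a1 were the 3 genes of the set past the study's thresholds, an absolute log2 fold change over 1 together with an unadjusted p under 0.05, against 2.03% of all tested genes lower in OVX by that rule. Without OVX 3, without Sham 2, or with the level of muscle markers as a covariate, 1 gene was past them, Atf3 in each case, and without the muscle-rich libraries 1 was, Fos.

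The other AP-1 subunits of the set differed less. Fos stood at 21.2, 26.7 and 33.2 CPM in Sham and 10.1, 20.8 and 17.5 CPM in OVX, without overlap (log2 fold change -0.75, SE 0.287). Junb, at 82.6, 87.1 and 85.7 CPM in Sham, was tight in that group and lay at 52.0, 72.3 and 70.3 CPM in OVX (log2 fold change -0.39, SE 0.124). Jun, at 57.8, 65.8 and 43.3 CPM in Sham against 32.9, 47.9 and 30.0 CPM in OVX, overlapped through OVX 2 and Sham 3 (log2 fold change -0.59, SE 0.224).

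Among the zinc finger factors, Egr1 stood at 81.4, 66.7 and 78.9 CPM in Sham and 39.7, 50.3 and 61.3 CPM in OVX, without overlap (log2 fold change -0.59, SE 0.259). Egr3, at 16.3, 12.2 and 9.24 CPM in Sham and 9.51, 7.33 and 11.6 CPM in OVX, overlapped. Egr2, the least abundant member, gave 3.38, 2.17 and 1.55 CPM in Sham and 2.18, 1.71 and 1.98 CPM in OVX, with the OVX libraries inside the Sham range (log2 fold change -0.27, SE 0.322). Ier2 was at 98.5, 93.3 and 76.6 CPM in Sham and 69.5, 71.7 and 73.5 CPM in OVX, a small gap without overlap (log2 fold change -0.32, SE 0.121). In all, 7 of the 10 genes were lower in OVX without overlap, against 10.6% of all tested genes.

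Atf3, Junb and Nr4a1 kept an unadjusted p under 0.05 in each of the 9 fits that left out a library. Some of these fits left out an OVX-AS-IV-High library, which is not in the groups compared here. Over all tested genes 2775 were under that p, in either direction, with all libraries. Without Sham 2, OVX 1 and Sham 1 there were 1763, 2614 and 2090, and with the muscle marker level as a covariate 2554. The count of 8 moved with the same single libraries, to 3 without Sham 2, 3 without OVX 1 and 4 without Sham 1. With the muscle marker level as a covariate it was 6, and without the 3 muscle-rich libraries, which leaves a single Sham library assumed to vary like the other groups, it was 1 (Fos, log2 fold change -1.03). The median log2 fold change of the 10 was -0.54 and -0.52 in these settings, beside -0.59 with all libraries. Single genes moved more than this median. Without the muscle-rich libraries Egr2 (0.35) and Egr3 (0.05) were above 0, and the others stayed below it. Jun then gave -0.22, Ier2 -0.09, Nr4a1 -0.68 and Fosb -1.09. These muscle settings were chosen after seeing the data, and the part of muscle RNA in the difference was not tested further.

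**Figure D2:**
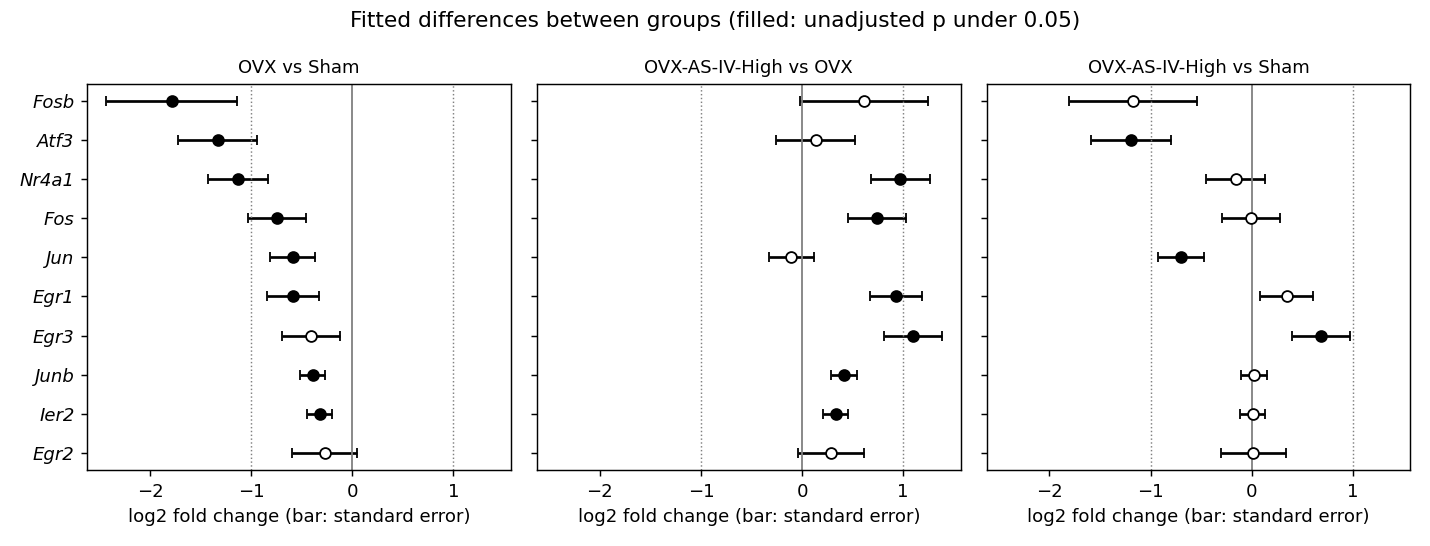
Fitted log2 fold changes of the 10 genes (x axes, with bars for the standard error) in the 3 comparisons, filled where the unadjusted p was under 0.05 and with dotted lines at an absolute value of 1. All 10 lie below 0 for OVX against Sham, 9 lie above 0 for OVX-AS-IV-High against OVX, and Atf3 and Fosb lie furthest below 0 for OVX-AS-IV-High against Sham.

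With AS-IV, 6 of the 10 genes had a higher level than in OVX at an unadjusted p under 0.05: Egr1, Egr3, Fos, Ier2, Junb and Nr4a1. This held for 4.42% of all tested genes. The median log2 fold change of the 10 was 0.51, beside -0.02 over all tested genes. No gene passed after adjustment by edgeR (0%, with 1089 genes under an unadjusted p of 0.05 and a smallest adjusted p of 0.652), and DESeq2 passed 37 genes, of which 0 were in the set. The OVX libraries enter this comparison and the previous one alike, so low OVX values push the pair of differences in opposite directions, and the values of each comparison stand for themselves.

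Egr3 was the 1 gene of the set past the study's thresholds in the treated group, against 0.456% of all tested genes, at 27.9, 17.2 and 15.6 CPM with AS-IV against 9.51, 7.33 and 11.6 CPM in OVX. All 3 treated libraries lay above all OVX libraries, OVX-AS-IV-High 1 by the widest gap. The log2 fold change was 1.09 (SE 0.287, edgeR adjusted p = 0.652), and it was 0.79 without OVX-AS-IV-High 1, 0.94 without OVX 2 and 0.79 without the muscle-rich libraries.

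Egr1 stood at 112.8, 57.4 and 118.0 CPM with AS-IV, so that OVX-AS-IV-High 2 lay within the OVX range while the other two lay above every other library (log2 fold change 0.93, SE 0.260). Fos reached 23.9, 21.6 and 35.2 CPM and Junb 89.8, 81.0 and 88.5 CPM with AS-IV, both above all OVX libraries (log2 fold changes 0.74 and 0.41, SE 0.287 and 0.124). Ier2 reached 102.6, 87.2 and 80.5 CPM, also above all OVX libraries (log2 fold change 0.33, SE 0.121). By this measure 5 genes, Egr3, Fos, Ier2, Junb and Nr4a1, were higher without overlap, against 6.38% of all tested genes.

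For Jun, Atf3, Fosb and Egr2 the unadjusted p was not under 0.05. Fosb had a log2 fold change of 0.61 (SE 0.636) that hung on single libraries, being 1.68 and past the study's thresholds without OVX 2 and 0.0084 without OVX-AS-IV-High 1. Jun stood at 37.6, 38.9 and 26.4 CPM with AS-IV, overlapping OVX, though OVX-AS-IV-High 3 was the lowest of all 9 libraries (log2 fold change -0.11, SE 0.224). Egr2, at 1.87, 2.55 and 2.75 CPM, overlapped OVX as well (log2 fold change 0.29, SE 0.322).

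In the AS-IV comparison, 6 genes had an unadjusted p under 0.05 with the muscle covariate, the same 6 genes as above. Over all tested genes 2055 were then under it in either direction, beside 1089 without the covariate. The fit without the muscle-rich libraries leaves a single Sham library. It gave log2 fold changes of 0.80 for Egr1, 0.79 for Egr3, 0.82 for Fos, 0.23 for Ier2, 0.39 for Junb and 0.72 for Nr4a1. For the others it gave 0.44 for Egr2, 0.01 for Fosb, -0.01 for Atf3 and -0.17 for Jun. Leaving out 1 library at a time gave 4 to 6 genes, beside 679 to 1429 over all tested genes in either direction. Egr1, Egr3, Junb and Nr4a1 kept an unadjusted p under 0.05 in each of these 9 fits, Fos in 7 and Ier2 in 6. Some of these fits left out a Sham library, which is not in the groups compared here, and all 6 genes held in those. The median of OVX-AS-IV-High against Sham was 0.00165 on the log2 scale. Atf3 and Jun were lower with AS-IV than in Sham at an unadjusted p under 0.05 (8.48% of all tested genes were lower by that rule) and Egr3 was higher (9.17% were higher). Again no gene passed after adjustment by edgeR (0%, with 2978 under an unadjusted p of 0.05), while DESeq2 passed 1009 genes, Atf3 among them. Atf3 passed the study's thresholds (2.03% of all tested genes were lower by them), though not without OVX-AS-IV-High 3 (log2 fold change -0.93), without the muscle-rich libraries (-0.99) or with the muscle covariate (-0.77), under which Egr3 passed them instead (1.01), and Atf3 and Jun did not overlap with Sham (10.3% were lower in this way). Jun gave a log2 fold change of -0.70 (SE 0.225, edgeR adjusted p = 0.172) and Egr3 one of 0.69 (SE 0.284, adjusted p = 0.260). Without Sham 2, 1 of these 3 genes, Atf3, kept an unadjusted p under 0.05.

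The genes varied from library to library beyond the group means. The biological coefficient of variation, the spread between replicates that edgeR estimates per gene, had a median of 0.256 over the 10 genes and 0.187 over all tested genes, and lay above the median of genes within 2-fold of the same level for 9 of the 10. It ran from 0.131 for Ier2 and 0.133 for Junb to 0.536 for Fosb. Group means took up between 12.4% (Egr2) and 69.4% (Junb) of the variance of log2 CPM, with a median of 58.6% over the 10 genes and 32.9% over all tested genes.

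Relative to each gene's own mean, the median log2 level of the set was 0.359, 0.221 and 0.115 in Sham. OVX gave -0.519, -0.237 and -0.263, whereas OVX-AS-IV-High gave 0.256, -0.0247 and 0.220. Sham 1 held 8 of the 10 genes among its 3 highest libraries and Sham 2 held 7, while OVX 1 and OVX 2 each held 8 among the 3 lowest and OVX 3 held 7. OVX-AS-IV-High 2 lay lowest in its group.

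To ask whether the genes move together, Pearson's r of log2 CPM over the 9 libraries was computed for all 45 pairs, beside Spearman's rho, with exact permutation tests. The r was positive in 41 pairs with a median of 0.471, whereas the median over all pairs of tested genes was -0.003. In 6 pairs the Benjamini-Hochberg adjusted exact permutation p of r over the 45 pairs was under 0.05, and in 0 pairs that of rho (15 and 13 pairs before adjustment). The 6 were Fos with Junb (r = 0.915, rho = 0.867), Fosb with Nr4a1 (0.848, 0.867), Fosb with Jun (0.847, 0.833), Egr3 with Ier2 (0.821, 0.833), Junb with Egr1 (0.819, 0.867) and Junb with Nr4a1 (0.801, 0.867). The libraries share their groups, and on deviations from the group means the median r was 0.197, with 32 pairs positive and 0 passing after adjustment (5 before).

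Nor did the 10 genes follow a single order of libraries. Fos, Junb and Egr1 went together, and Fosb, Jun and Atf3 went together, trios picked from these same correlations. Between the trios r ran from -0.127 for Jun with Egr1, through 0.00892 for Fos with Atf3, 0.140 for Fos with Jun and 0.471 for Fos with Fosb, to 0.609 for Fosb with Junb. Within groups Fos and Atf3 went opposite ways (r = -0.891), Sham 3 and OVX-AS-IV-High 3 being the highest libraries of their groups for Fos and the lowest for Atf3. This pair was named as the largest absolute r within groups, and its exact permutation p within groups was 0.032, or 0.333 after Benjamini-Hochberg adjustment. Nr4a1 followed the mean of the other 9 genes most closely (r = 0.915), and Egr2 least (0.245). Without the 2 libraries farthest from the median of the first gene of each pair, the median r was 0.276 and 0 pairs passed after adjustment. Fos with Junb then gave r = 0.728 and Fosb with Jun 0.864, but Fos with Atf3 gave 0.605, Egr1 with Atf3 0.484 and Fos with Jun 0.390, while Jun with Egr1 gave -0.299 and Fosb with Junb 0.0620, so the values between the trios moved both ways.

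**Figure D3:**
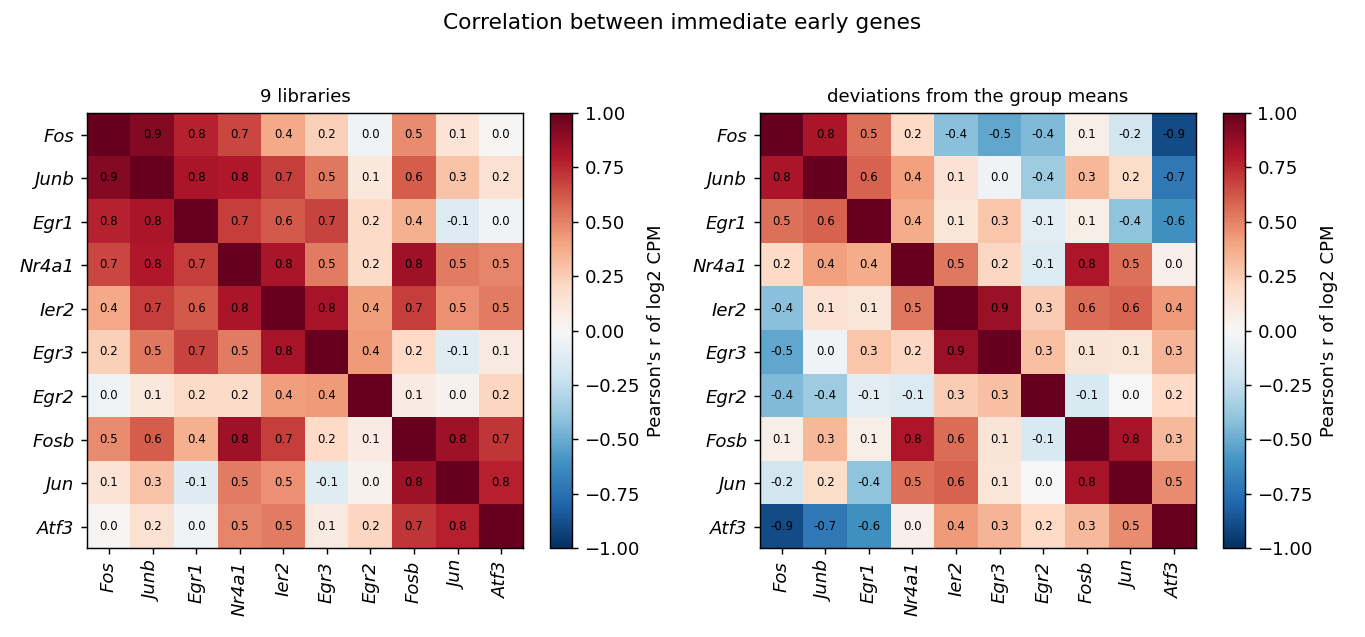
Pearson's r of log2 CPM between the 10 genes, over the 9 libraries on the left and on deviations from the group means on the right, on a colour scale from -1 to 1. A block of Fos, Junb and Egr1 and a block of Fosb, Jun and Atf3 stand out on the left. On the right the largest absolute value is -0.891 for Fos and Atf3 (adjusted exact permutation p = 0.333).

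Other genes of tissue composition moved beside the set, and their part in its levels was not tested. B lineage markers (5 genes, among them Cd79a and Pax5) summed to 534 to 677 CPM in Sham, 918 to 945 CPM in OVX and 628 to 880 CPM in OVX-AS-IV-High, and all 5 were higher in OVX than in Sham at an unadjusted p under 0.05, against 8.16% of all tested genes. With AS-IV 3 of the 5 were lower than in OVX at an unadjusted p under 0.05, against 2.03% of all tested genes. Osteoblast markers summed to 3040 to 8652, 6969 to 11485 and 3627 to 9703 CPM in the same order of groups. At an unadjusted p under 0.05, 1 of 6 was higher in OVX than in Sham. Adipocyte markers (Adipoq, Plin1 and 4 others) summed to 408 to 632, 609 to 832 and 533 to 844 CPM, with 5 of 6 higher in OVX by that rule. The mean standardised level of the 10 genes had a Pearson's r of -0.873 with the log2 B lineage sum, -0.764 with the osteoblast sum, -0.631 with the adipocyte sum and 0.432 with the muscle sum over the 9 libraries, given as descriptions since all come from the same libraries. It was -0.604 with the macrophage sum and -0.505 with the osteoclast sum, and between 0.122 (neutrophil) and 0.292 (erythroid) with the remaining sums.

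**Figure D4:**
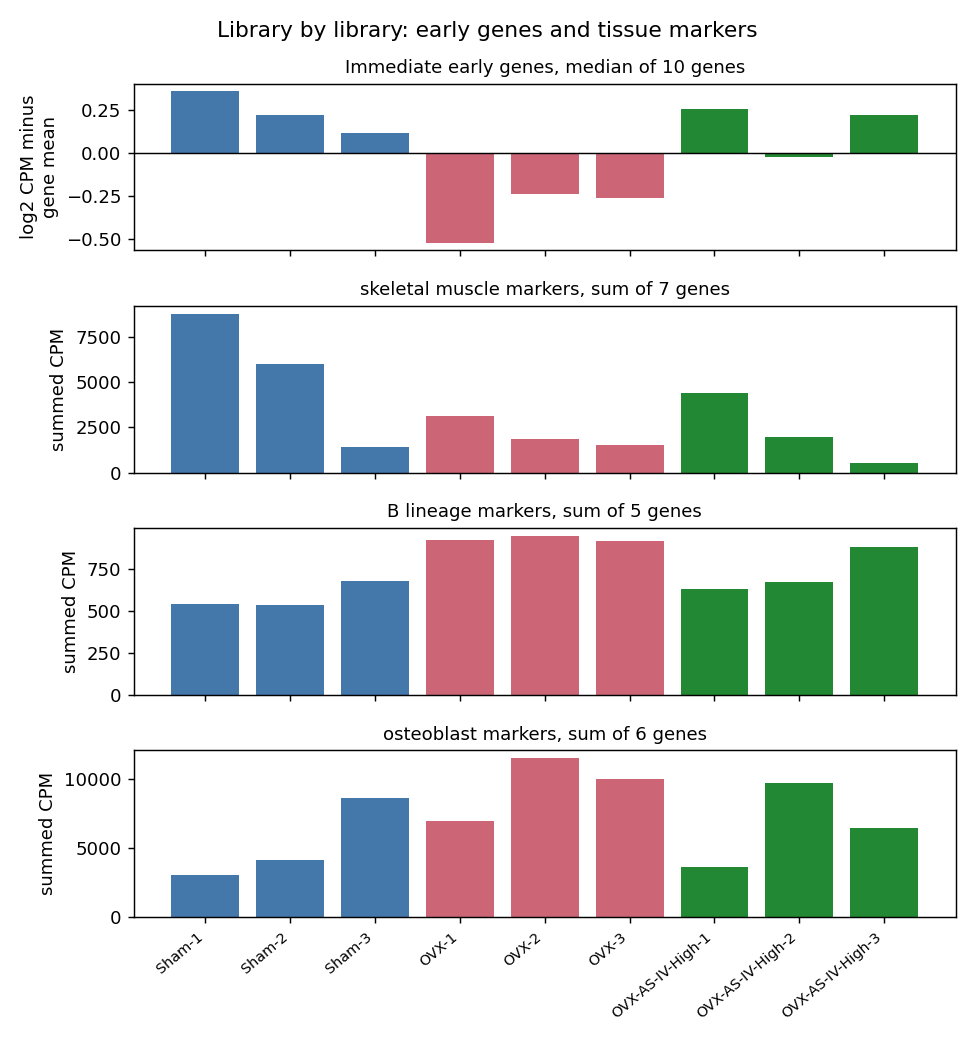
For each of the 9 libraries, the median log2 CPM of the 10 genes relative to each gene's mean (top, axis through 0) and the summed CPM of muscle, B lineage and osteoblast markers (lower panels, from 0). The 3 OVX libraries are the lowest for the genes and the highest for B lineage markers, and muscle markers reach 8770 CPM in Sham 1.

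Of 15 AP-1 and ATF partners, 3 lay below Sham in OVX at an unadjusted p under 0.05 (Jund, Atf4 and Mafg) and 1 was higher (Atf2), beside 8.28% and 8.16% of all tested genes, with 0 in either direction between OVX-AS-IV-High and OVX. By size the leading differences in OVX against Sham were Batf3 (log2 fold change -0.57, SE 0.371), Fosl1 (-0.45, SE 0.503) and Mafg (-0.38, SE 0.155). Of 19 other early response transcription factors, 2 were lower in OVX (Klf6 and Bhlhe40) and 1 higher (Csrnp1), beside the same shares. With AS-IV 3 were higher than in OVX (Nr4a2, Nr4a3 and Hes1) and 1 lower (Klf4), beside 4.42% and 2.03% of all tested genes. Nr4a3, a relative of Nr4a1, passed the study's thresholds with AS-IV (log2 fold change 2.23, SE 0.874, edgeR adjusted p = 0.733). Its levels were low, at 0.218, 1.34 and 0.298 CPM in OVX and 3.72, 1.49 and 3.57 CPM with AS-IV. Sham, at 1.10, 4.02 and 0.507 CPM, overlapped both.

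Of 28 feedback genes, which are known to limit early responses, 5 were below and 3 above their Sham level in OVX at an unadjusted p under 0.05. Of all tested genes 8.28% were below and 8.16% above by that rule. By size the leading differences, of which that of Dusp4 had a p above 0.05, were as follows. Dusp1, a MAP kinase phosphatase, gave a log2 fold change of -0.97 (SE 0.338), Dusp4 0.74 (SE 0.409) and Ier3 -0.67 (SE 0.207). With AS-IV 2 of the feedback genes were higher than in OVX and 2 lower, beside 4.42% and 2.03% of all tested genes. Beside the same shares, 4 of 19 secreted and effector genes were lower in OVX and 0 higher. With AS-IV 2 were higher and 0 lower. Ptgs2, the inducible cyclooxygenase, passed the study's thresholds in both comparisons, which share the OVX libraries. It stood at 8.62, 6.54 and 8.82 CPM in Sham, 3.19, 2.40 and 3.77 CPM in OVX and 14.0, 5.12 and 9.53 CPM with AS-IV. The log2 fold changes were -1.36 (SE 0.346, edgeR adjusted p = 0.153) and 1.61 (SE 0.348, adjusted p = 0.652).

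Heat shock genes, which answer to protein damage and tissue stress, were examined because handling can also induce them. Of 14 heat shock and unfolded protein genes, 6 had an unadjusted p under 0.05 with a lower level in OVX than in Sham and 0 with a higher one. By that rule 8.28% of all tested genes were lower and 8.16% higher. Past the study's thresholds were 4 of the 14, against 2.03% of all tested genes lower by them. These were Hspa1a (log2 fold change -2.01, SE 0.672), Hspa1b (-2.02, SE 0.794), Hspb1 (-1.50, SE 0.595) and the co-chaperone Bag3 (-1.03, SE 0.338). Hspa1a stood at 12.1, 7.07 and 3.97 CPM in Sham, 3.38, 1.74 and 0.624 CPM in OVX and 3.94, 5.28 and 1.37 CPM with AS-IV. Hspa1a and Hspa1b are near-identical genes whose reads the counting could have split. Hspb1, abundant in muscle, stood at 64.1, 69.6 and 20.5 CPM in Sham, and Sham 1 and Sham 2, the muscle-rich libraries of that group, were also its highest. Bag3, at 37.4, 36.5 and 18.4 CPM in Sham, Hspa1a and Hspa1b were likewise highest in Sham 1 and Sham 2. The part of muscle RNA in these genes was not tested. With AS-IV 1 gene of the 14 was higher than in OVX, Ddit3 (log2 fold change 0.26, SE 0.105), against 4.42% of all tested genes.

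Outside these lists, the 10 tested genes whose log2 CPM followed the mean standardised level of the set most closely over the 9 libraries were Osm, Gabre, Pcnx4, Amotl1, LOC120101756, Ampd2, Oxnad1, Plpp5, P2ry4 and Ccdc191, with r from 0.962 down to 0.909. Osm, which encodes the cytokine oncostatin M, stood at 16.5, 17.9 and 15.2 CPM in Sham, 7.82, 9.20 and 8.30 CPM in OVX and 17.8, 11.7 and 12.7 CPM with AS-IV. The 5 genes running most nearly opposite were Txndc5 (r = -0.969), Ly86 (-0.958), Psma4 (-0.956), Chrac1 (-0.952) and Faim (-0.948). These genes were picked from all tested genes by this likeness, and no test was made of it.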

How the data were processed

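mRNA-seq of bone from 9 rats' libraries, 3 per group, was analysed from 2 tables. According to the methods, TopHat with Bowtie2 served the authors for alignment, and eXpress for quantification; the submitters' processing notes name the build mRatBN 7.2. The deposited counts are whole numbers per gene, and how they were made whole is not given in the sources used here. The deposited FPKM, computed by the authors, gave the same gene length from library to library within 1% in 11928 of 11928 genes with at least 100 counts.

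The counts were filtered with filterByExpr (minimum count 10), scaled by TMM and fitted over all 9 libraries with edgeR 4.0.16 in R 4.3.3 (quasi-likelihood test, Benjamini-Hochberg adjustment over 16874 genes). CPM values use TMM library sizes, and correlations use log2 CPM with a prior count of 2. Correlations were tested by exact permutation with NumPy 2.4.6, and ranks came from SciPy 1.17.1. Permuting 3 libraries against 3 cannot give a two-sided p below 0.1. The scripts were tested on simulated data. The study's methods name a smaller fold threshold than its results section, whose absolute log2 fold change over 1 was used.

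Groups came from the labels. Same-numbered libraries of OVX and OVX-AS-IV-High deviated together (r = 0.310, 0.158 and 0.130 over genes), a hint of pairing from the data only, and those of the other pairs of groups did not all do so. Muscle markers fell from replicate 1 to replicate 3 in every group, and their part in this was not tested. Differently numbered libraries were not compared in this way. Alternatives were RLE scaling, no filter, DESeq2 1.42.0, limma 3.58.1 on log2(FPKM + 1) and log2(FPKM + 0.1), only the groups compared, a replicate block, and each library left out. The 10 genes and the lists (partners, other early factors, feedback, secreted, upstream kinases, heat shock, hypoxia, cell type markers) were chosen with earlier results of these data known. Genes named beyond the 10 were those past the study's thresholds or, failing that, the 3 of a list with the largest absolute log2 fold change in OVX against Sham, and the 10 most and 5 least like the set; others were named after their values were seen. Some genes that this rule names are not reported here. The promoter sequences come from RefSeq on GRCr8, another build than that of the tables, and no coordinate was carried between them.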

Additional observations from a re-analysis of the deposited data

How the results depend on the processing

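Of 540 values of single genes under an alternative, 489 stayed on their side of an unadjusted p of 0.05, 44 lost it, 7 gained it, and 30 changed sign, 0 of which had a p under 0.05 in either fit. After adjustment DESeq2 passed 2 genes of the set for OVX against Sham and 1 for OVX-AS-IV-High against Sham, where edgeR passed 0. On log2(FPKM + 1), limma left 0 genes past the study's thresholds in each comparison, and on log2(FPKM + 0.1) it left 0 for OVX-AS-IV-High against OVX. Over all tested genes limma left 75 on log2(FPKM + 1) for OVX against Sham, 13 for OVX-AS-IV-High against OVX and 84 for OVX-AS-IV-High against Sham. On log2(FPKM + 0.1) it left 80 for OVX-AS-IV-High against OVX. Leaving out 1 library gave 3 to 8 genes under an unadjusted p of 0.05 for OVX against Sham and 1 to 4 for OVX-AS-IV-High against Sham. Over all tested genes the same fits gave 1763 to 4332 and 1925 to 3995. By the study's thresholds leaving out 1 library gave 1 to 3 genes for OVX against Sham, 0 to 3 for OVX-AS-IV-High against OVX and 0 to 2 for OVX-AS-IV-High against Sham. Over all tested genes these fits gave 387 to 1064, 141 to 219 and 409 to 940 in that order. Correlated pairs numbered 0 to 3 with 1 library left out. With only the 2 groups compared, and with the replicate block, 2 genes passed the thresholds for OVX-AS-IV-High against Sham. The replicate block gave medians of -0.60, 0.60 and 0.02 in the 3 comparisons and changed no other count by over 1.5 times. Correlated pairs numbered 0 without the 2 extreme libraries (median r 0.276). They also numbered 0 on deviations from the group means (median r 0.197), where permuting within groups could hardly let a pair pass. Chosen after seeing the data, the muscle covariate gave 1, 2 and 1 genes past the thresholds in the 3 comparisons, the last being Egr3 in place of Atf3. Over all tested genes the covariate fit gave 387, 187 and 434. Without the muscle-rich libraries 1 gene was under an unadjusted p of 0.05 for OVX against Sham and 1 for OVX-AS-IV-High against Sham, and 1, 0 and 0 passed the thresholds. The cause was not tested. At the depth here, Egr2 and Fosb had the fewest counts, and Fosb and Atf3 the widest errors.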

Other observations

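Of 19 upstream kinases and serum response regulators, 7 were higher in OVX than in Sham at an unadjusted p under 0.05 (Map2k1, Map3k8, Elk3, Elk4, Mrtfa, Mrtfb and Crem). Another 1 was lower (Crtc2), beside 8.16% of all tested genes higher and 8.28% lower. With AS-IV 2 were higher than in OVX (Rps6ka3 and Creb1) and 0 lower, beside 4.42% and 2.03% of all tested genes. By size the leading difference was Mrtfb, a cofactor of serum response factor (log2 fold change 0.63, SE 0.253). None passed edgeR's adjusted test.

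Of 12 hypoxia genes, 2 were lower in OVX than in Sham (Vegfa and Car9) and 1 higher (Ero1a) at an unadjusted p under 0.05. By that rule 8.28% of all tested genes were lower and 8.16% higher. Vegfa, the endothelial growth factor, gave a log2 fold change of -0.71 (SE 0.234). Adm, which encodes adrenomedullin, passed the study's thresholds for OVX-AS-IV-High against Sham (-1.53, SE 0.388). Among the remaining cell type markers, summed levels overlapped between Sham and OVX: erythroid markers at 41810 to 60246 CPM in Sham and 35932 to 44536 CPM in OVX, neutrophil markers at 11005 to 15394 and 13184 to 17892 CPM, and macrophage markers at 322 to 623 and 457 to 548 CPM. So did osteoclast markers, at 974 to 2166 and 1390 to 2638 CPM, chondrocyte markers, at 1214 to 3142 and 533 to 2091 CPM, and endothelial markers, at 280 to 331 and 238 to 320 CPM.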
